A study of Mus musculus with 6 samples.

Results

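The 9 genes described here encode enzymes that oxidise alcohols, aldehydes and retinoids in the liver, and were taken by name from the 53599 genes of the count table. They are the alcohol dehydrogenases Adh1, Adh4 and Adh5, the aldehyde dehydrogenases Aldh1a1, Aldh1a7, Aldh1b1 and Aldh2, and the retinol dehydrogenases Rdh7 and Rdh16. All 9 passed the filter on low counts, which left 12691 genes for testing. Each member had at least 376 counts in every library, so none passed through a single group.

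RNA-seq libraries were made from mouse liver cells labelled hepatocytes, harvested at day 4 after injection of an adeno-associated virus of serotype 8 (AAV8). The 3 EV libraries (empty vector, genotype label WT) received AAV8-TBG-Cre, and the 3 Sox4 libraries (genotype label Sox4) received AAV8-TBG-HA-Sox4-P2A-Cre, which adds HA-tagged mouse Sox4, a transcription factor, to the same Cre recombinase. Both groups therefore carried the virus and Cre, and the TBG promoter restricts expression from either vector mainly to hepatocytes. The study's methods name an EV plasmid that also holds a guide RNA backbone, so the vectors may differ in more than Sox4. The study used male mice and, for Sox4 delivery, the Rosa26-LSL-Cas9-EGFP strain, in which Cre switches on Cas9 and EGFP. The labels give neither strain nor age, and the study states ages of 4 to 8 weeks for its Sox4 delivery experiments. The labels do not tie libraries to animals. The study describes its RNA-seq of EV and Sox4 hepatocytes as coming from 3 animals, so the replicates were taken as separate mice.

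Total counts ranged from 15090629 to 16964860 per library. The delivered gene had 2, 0 and 3 counts in the EV libraries, at most the floor of 3 counts, and 21697, 15097 and 11816 counts in the Sox4 libraries. Scaling by trimmed mean of M-values (TMM), which assumes that most genes do not change, gave effective library sizes of 12977664 to 13770352 for EV and 19577244 to 19950939 for Sox4. Levels are given as CPM, counts scaled to these effective sizes. The choice of scaling matters for every fold change below: with TMM the median log2 difference (Sox4 minus EV) of all genes tested was 0.04, and with library size alone it was 0.51. With TMM, 47.3% of the genes past the threshold were lower in Sox4, and with library size alone 20.1% were. Hepatocyte markers (Alb, Apoa1, Ttr, Hnf4a, Asgr1, Cps1, Serpina1a, Tat) summed to between 112100 and 135200 CPM in EV. In Sox4 they summed to between 79930 and 91250 CPM. Of the 8, 6 were lower in Sox4, against 26.0% of all genes tested and 44.9% of those averaging 900 counts or more. Most of each sum was Alb, with means of 99190 CPM in EV and 66520 CPM in Sox4. Before scaling, its counts overlapped, at 1097697 to 1439514 in EV and 1236316 to 1440613 in Sox4. In bulk RNA, fewer cells of a type and less RNA of a gene per cell cannot be told apart.

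Alcohols are oxidised in the liver in a pair of steps. Alcohol dehydrogenases of the cytosol turn ethanol and other alcohols into aldehydes, and aldehyde dehydrogenases of the cytosol and mitochondria turn aldehydes into acids, acetaldehyde into acetate among them. Retinol follows the same chemistry, first to retinal by retinol dehydrogenases of the short-chain family in the endoplasmic reticulum, then to retinoic acid by enzymes of the Aldh1a family. Hepatocytes express many of these enzymes at high levels.

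Several members belong to groups of close copies, which bears on how well reads can be assigned. Over aligned coding bases, Aldh1a1 and Aldh1a7 were 91.9% identical, with 100 bases as the longest stretch in common, and Rdh7 and Rdh16 were 87.8% identical with a longest stretch of 71 bases. Aldh2 and Aldh1b1 were 71.8% identical, and the 3 alcohol dehydrogenases between 66.3% and 68.8%. Whole exonic stretches of 100 bases that recur in another gene made up 4.1% of Rdh7 and 7.7% of Rdh16, in both cases mainly through the pseudogene Rdh18-ps, and at most 0.6% of each of the other members. These shares run over all annotated transcripts, not over coding bases alone, where Rdh16 and Rdh9 had 229 bases as their longest stretch in common. How uncertain the counts of Rdh7 and Rdh16 are is not known, since the treatment of multi-mapping reads is not given in the sources used here. Rdh16 also shared 6.1% of its exonic bases with Rdh18-ps on the same strand. Adh1 shared 6.1% with Gm16559, and Aldh2 shared 2.5% with Gm42879, both on the opposite strand, where reads cannot be assigned if strand was not used.

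The members lie at few places in the genome. The alcohol dehydrogenase genes are all on chromosome 3, Aldh1a1 and Aldh1a7 are on opposite strands of chromosome 19, and Rdh7 and Rdh16 are on chromosome 10 together with Rdh9, Rdh16f2 and Rdh1. Aldh2 is on chromosome 5 and Aldh1b1 on chromosome 4.

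RefSeq windows upstream of a transcription start (GRCm38.p6, not the GRCm39 build of the counts) were held for 8 of the 9 members, with none for Aldh2. The pair Aldh1a1 and Aldh1a7 is shown because both fell in Sox4 and because their 250 bases before the start are alike. Of the 250 bases, 176 were identical (70.4%), against 47.2% to 58.0% with a median of 52.8% in 74 pairs of windows from different enzyme families. Capitals mark the longest stretch in common, 65 bases that begin 94 bases before the start in both genes. The Aldh1a1 window is chr19:20601718-20601967 on the plus strand, before the second of its annotated starts, and the Aldh1a7 window is chr19:20727557-20727806 on the minus strand.
Aldh1a1: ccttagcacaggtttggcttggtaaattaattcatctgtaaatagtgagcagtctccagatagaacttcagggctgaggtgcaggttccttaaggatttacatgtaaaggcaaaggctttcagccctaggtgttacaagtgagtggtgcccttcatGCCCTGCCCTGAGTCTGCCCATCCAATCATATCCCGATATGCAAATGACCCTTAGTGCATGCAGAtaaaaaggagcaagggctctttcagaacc
Aldh1a7: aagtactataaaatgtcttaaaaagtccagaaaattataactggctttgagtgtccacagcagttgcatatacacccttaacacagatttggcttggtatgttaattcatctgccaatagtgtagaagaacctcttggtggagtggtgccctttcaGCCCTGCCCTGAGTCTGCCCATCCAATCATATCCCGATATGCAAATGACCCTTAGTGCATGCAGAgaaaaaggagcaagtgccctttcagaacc

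That stretch holds ATGCAAAT, the octamer bound by POU factors, from 56 to 49 bases before the start in both genes, and CCAAT from 72 to 68 bases before it. The octamer was searched for after the stretch had been seen. It occurs, on either strand, in 1.6% of 32851 RefSeq windows of the same length, and CCAAT in 33.8%. The window before the other Aldh1a1 start had no such likeness to Aldh1a7 (56.0% identical, longest stretch 8 bases).

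The SOX motif in its short form ACAAAG was found, on either strand, in 2 of the 11 windows of members, at positions -224 to -219 relative to the Adh4 start and -235 to -230 relative to the first Aldh1a1 start, and occurs in 16.5% of all windows. Its longer form AACAAAG was in none of the 11 (5.03% of all windows). CAAAG, a part of the HNF4 motif that overlaps the SOX motif, was in 9 of the 11 windows (48.6% of all windows), and the longer HNF4 form CAAAGTCCA was in none (0.384% of all windows). The short forms were added after the longer ones had been searched. TTGCNNAA, a C/EBP motif, was found in 1 member window, that of the first Aldh1a1 start (9.56% of all windows), and TATAAA in windows of Adh5, Aldh1a7 and Rdh16 (12.4% of all windows). A match in such a window is a description of its letters only.

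The second pair, Rdh16 and Rdh9, is shown because their coding sequences are the most alike (96.3% identical, longest stretch 229 bases) while Rdh16 was called lower and Rdh9 higher. The groups of Rdh16 overlap and its call is lost under several alternatives, and 63.5% of the 100-base exonic stretches of Rdh9 recur in other genes, so the opposite directions are not firm. Of the 250 bases before their starts, 62.0% were identical, and capitals mark the longest stretch in common, 12 bases. The Rdh16 window is chr10:127800903-127801152 and the Rdh9 window is chr10:127776155-127776404, both on the plus strand.
Rdh16: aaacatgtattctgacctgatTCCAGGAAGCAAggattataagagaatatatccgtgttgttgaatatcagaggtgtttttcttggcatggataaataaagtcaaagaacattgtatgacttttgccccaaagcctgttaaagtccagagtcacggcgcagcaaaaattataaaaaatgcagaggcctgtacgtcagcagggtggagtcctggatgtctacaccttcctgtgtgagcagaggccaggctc
Rdh9: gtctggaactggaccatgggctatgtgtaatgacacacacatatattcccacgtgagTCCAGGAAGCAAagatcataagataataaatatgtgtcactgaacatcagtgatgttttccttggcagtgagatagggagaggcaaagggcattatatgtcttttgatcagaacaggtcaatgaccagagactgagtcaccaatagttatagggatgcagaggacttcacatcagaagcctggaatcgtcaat

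Of the 9 members, 8 were lower in Sox4 and none was higher at an adjusted p under 0.05 (edgeR quasi-likelihood test). Aldh1b1 did not pass. No member was higher at an unadjusted p under 0.05 either, or with DESeq2 or limma-voom. Over all genes tested, 55.1% passed, 26.0% as lower and 29.0% as higher. The median log2 difference of the members was -1.09, against 0.04 for all genes tested. For 7 of the 9, every Sox4 library was below every EV library, as for 29.9% of all genes tested, while 33.1% of all genes had every Sox4 library above every EV library and no member did. The share of lower genes was larger among abundant genes: of 2711 genes whose mean count was 900 or more, a limit chosen after the values were seen and passed by all 9 members, 44.9% were lower. With library size alone as scaling, 5 of the 9 members were lower (Adh4, Adh5, Aldh1a7, Aldh2 and Rdh7) and none was higher. Under that scaling, 1624 of all 12691 genes tested were lower and 6468 were higher.

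**Figure D1:**
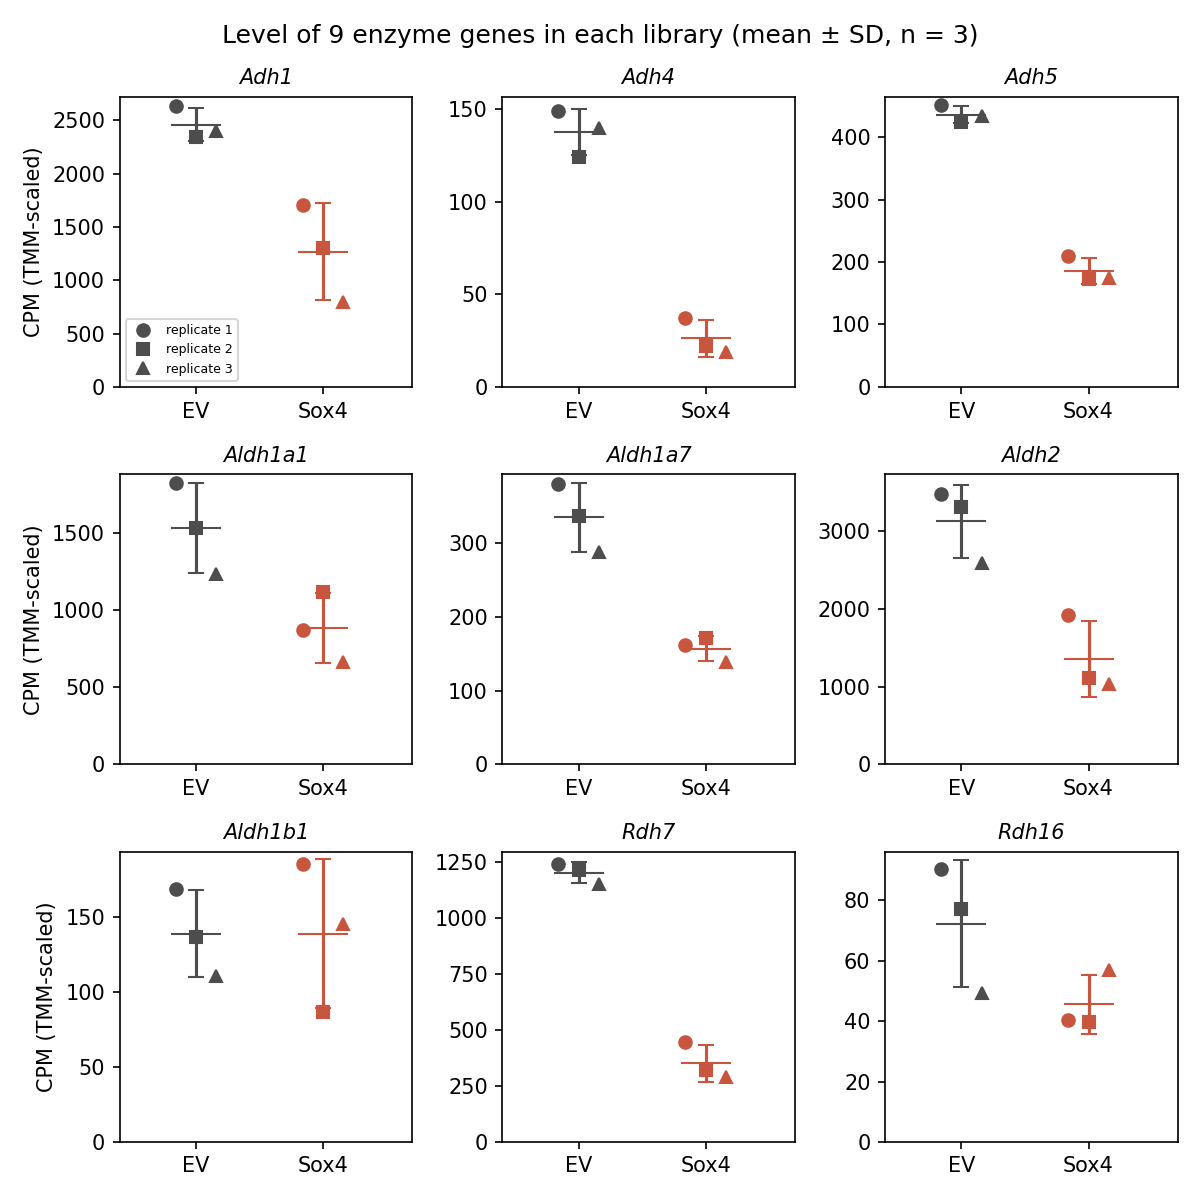
Level of each member in each library, in CPM on an axis from 0 with a scale of its own per gene; points are libraries, with marker shapes for replicates 1, 2 and 3, and the bar with whiskers is the group mean ± SD (n = 3). Every Sox4 point lies below every EV point for 7 genes, and the groups overlap for Aldh1b1 and Rdh16.

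The alcohol dehydrogenases were all lower in Sox4, and Adh4 by the most. Adh1, the class I enzyme that carries out most ethanol oxidation in liver, stood at 2631, 2346 and 2400 CPM in the EV libraries and at 1705, 1303 and 797.9 CPM in the Sox4 libraries. Every Sox4 library was below every EV library, and the Sox4 libraries differed among themselves by more than the EV libraries did. The mean went from 2459 ± 151.6 to 1269 ± 454.3 CPM (SD, n = 3), a log2 difference of -0.95 with a standard error (SE) of 0.33 (edgeR adjusted p = 0.00866). With library size alone the log2 difference of Adh1 was -0.49 and did not pass (edgeR adjusted p = 0.111).

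Adh4, the class II enzyme, which also accepts retinol and longer alcohols, had 148.9, 124.1 and 139.9 CPM in EV and 37.29, 22.17 and 19.05 CPM in Sox4. The groups were far apart, with the highest Sox4 library well under the lowest EV library. Its mean fell to 19.0% of the EV mean, from 137.6 ± 12.55 to 26.17 ± 9.76 CPM (SD, n = 3), a log2 difference of -2.39 (SE 0.30, edgeR adjusted p = 5.28e-05). This was the largest difference of the 9 members, and 2.32% of all genes tested had a log2 difference as low.

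Adh5, the class III enzyme that removes formaldehyde bound to glutathione and is expressed in nearly all cells, had 450.8, 424.2 and 433.2 CPM in EV. The Sox4 libraries had 209, 172.8 and 173.8 CPM. Relative to their mean, its EV libraries were the most even of the 9 members, and the groups did not overlap. The mean fell to 42.5% of EV, a log2 difference of -1.24 (SE 0.09, edgeR adjusted p = 4.02e-05).

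Since a ratio of 2 genes inside a library does not depend on how libraries are scaled, 8 ratios of members were compared by an exact two-sided permutation test, for which 3 libraries against 3 cannot give a p below 0.1. The count ratio of Adh1 to Adh4 was 17.7, 18.9 and 17.2 in EV and 45.7, 58.8 and 41.9 in Sox4. Every Sox4 library was above every EV library, with a log2 difference of 1.43 (SE 0.15, exact permutation p = 0.1, adjusted p = 0.2 over the 8 ratios). Adh4 was also lower relative to Adh5, at 0.330, 0.293 and 0.323 in EV and 0.179, 0.128 and 0.110 in Sox4 (log2 difference -1.21, SE 0.21, exact permutation p = 0.1, adjusted p = 0.2). The ratio of Adh1 to Adh5 overlapped between the groups, at 5.53 to 5.84 in EV and 4.59 to 8.16 in Sox4 (log2 difference 0.22, SE 0.26, exact permutation p = 0.4).

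**Figure D2:**
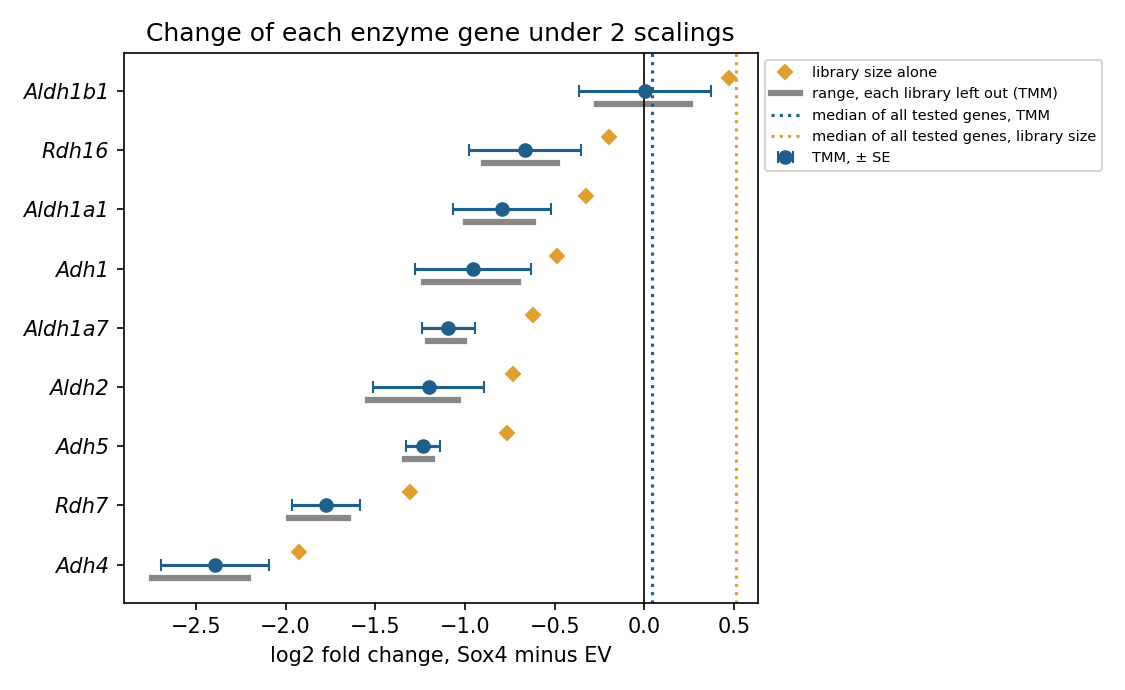
Log2 fold change (Sox4 minus EV) of each member under TMM scaling (circles, whiskers ± SE), its range when each library was left out (grey bars) and its value with library size alone (diamonds); dotted lines are the medians of all genes tested, 0.04 and 0.51. The circles of 8 members lie left of 0 and that of Aldh1b1 lies at 0, and every diamond lies to the right of its circle.

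The aldehyde dehydrogenases were lower in 3 of 4 cases. In the cytosol, Aldh1a1, which oxidises retinal to retinoic acid as well as other aldehydes, had 1826, 1538 and 1240 CPM in EV and 872.9, 1121 and 662.8 CPM in Sox4. The groups did not overlap, but the highest Sox4 library came close to the lowest EV library. The mean went from 1534 ± 293.2 to 885.5 ± 229.1 CPM (SD, n = 3), a log2 difference of -0.79 (SE 0.27, edgeR adjusted p = 0.0113). With library size alone Aldh1a1 did not pass (log2 difference -0.32, edgeR adjusted p = 0.216).

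Aldh1a7, a close copy of Aldh1a1 found in rodents, had 380.4, 336.5 and 287.3 CPM in EV and 161.7, 170.8 and 138.6 CPM in Sox4. It fell in Sox4 with no overlap, to 46.9% of the EV mean (log2 difference -1.09, SE 0.15, edgeR adjusted p = 0.000185). The ratio of Aldh1a7 to Aldh1a1 was 0.208, 0.219 and 0.232 in EV and 0.185, 0.152 and 0.209 in Sox4. These values overlapped, and the log2 difference of the ratio was -0.28 (SE 0.14, exact permutation p = 0.2, adjusted p = 0.32).

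Of the 100-base exonic stretches of Aldh1a7, 0.1% recur in Aldh1a1. Shorter reads could fit both more often, and the read length is not given in the sources used here.

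Of the mitochondrial enzymes, Aldh2 was lower and Aldh1b1 did not pass. Aldh2, which clears most of the acetaldehyde made from ethanol, had 3474, 3309 and 2588 CPM in EV and 1921, 1116 and 1037 CPM in Sox4. Every Sox4 library was below every EV library. The mean went from 3123 ± 471.1 to 1358 ± 489 CPM (SD, n = 3), a log2 difference of -1.20 (SE 0.31, edgeR adjusted p = 0.00252), and with library size alone it remained past the threshold (log2 difference -0.73, edgeR adjusted p = 0.0257).

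Aldh1b1, a mitochondrial enzyme that also accepts acetaldehyde and is closest to Aldh2 among the members, had 168.8, 137.1 and 111 CPM in EV and 185.4, 86.58 and 145.3 CPM in Sox4. The groups overlapped, and both the highest and the lowest library were Sox4 libraries. The means were 138.9 ± 28.98 and 139.1 ± 49.71 CPM (SD, n = 3), with a log2 difference of 0.00 and a 95% confidence interval from -0.62 to 0.62 (edgeR adjusted p = 0.996). A change of up to about that size in either direction could not be told from none at this spread. Leaving out single libraries moved the log2 difference from -0.26 (without the first Sox4 library) to 0.25 (without the second).

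The ratio of Aldh1b1 to Aldh2 was 0.0486, 0.0414 and 0.0429 in EV and 0.0965, 0.0776 and 0.140 in Sox4. Every Sox4 library was above every EV library (log2 difference 1.20, SE 0.26, exact permutation p = 0.1, adjusted p = 0.2). The counts of Aldh1b1 and Aldh2 were thus closer to each other in these Sox4 libraries, though the test cannot give a smaller p. The ratio of Aldh1a1 to Aldh2 overlapped, at 0.465 to 0.526 in EV and 0.455 to 1.004 in Sox4 (log2 difference 0.44, SE 0.34, exact permutation p = 0.4). The ratio of Adh1 to Aldh2, which compares the first and the second step of ethanol oxidation, overlapped as well, at 0.709 to 0.927 in EV and 0.770 to 1.17 in Sox4 (log2 difference 0.23, SE 0.21, exact permutation p = 0.4).

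**Figure D3:**
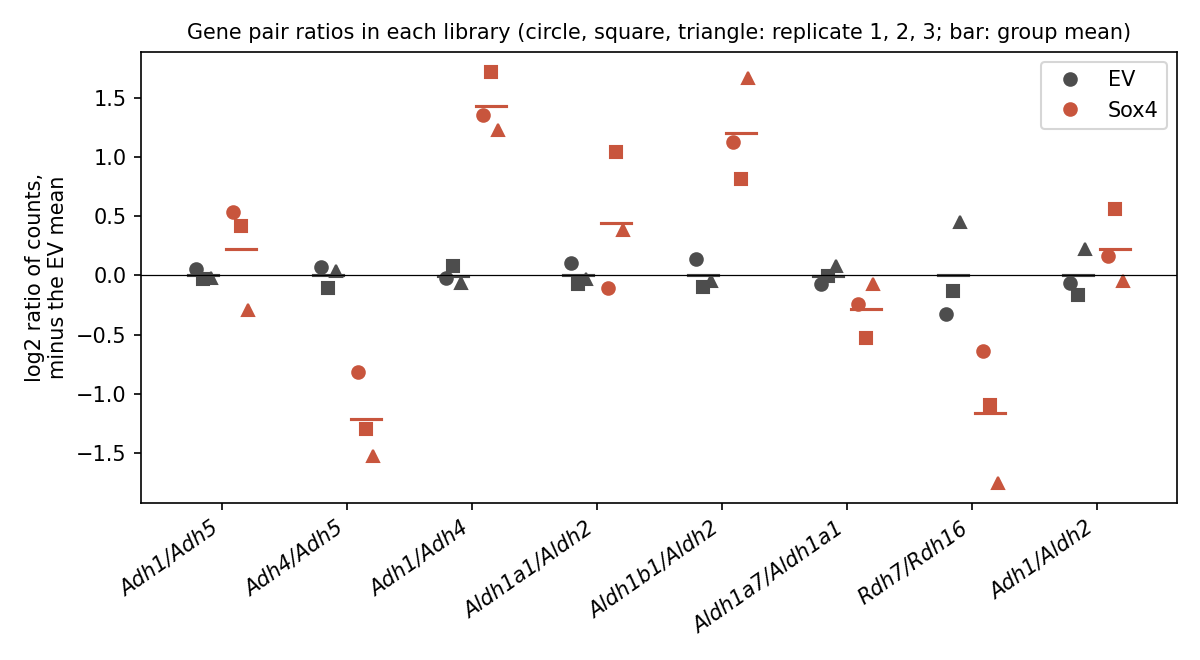
Log2 ratio of the counts of 2 members inside each library, minus the mean of the EV libraries, for the 8 ratios compared, with marker shapes for replicates 1, 2 and 3 and a bar at each group mean. The groups do not overlap for Adh4 to Adh5, Adh1 to Adh4, Aldh1b1 to Aldh2 and Rdh7 to Rdh16, and overlap for the other 4 ratios.

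Rdh7 and Rdh16 are membrane-bound short-chain enzymes that oxidise retinol and also 3-alpha-hydroxysteroids. Rdh7 had 1240, 1212 and 1152 CPM in EV and 444.1, 318.6 and 290.2 CPM in Sox4. The EV libraries were nearly level, and every Sox4 library was far below them. The mean fell to 29.2% of EV, from 1201 ± 45.1 to 351 ± 81.87 CPM (SD, n = 3), a log2 difference of -1.78 (SE 0.19, edgeR adjusted p = 3.2e-05).

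Rdh16 had 90.39, 77.22 and 49.24 CPM in EV and 40.3, 39.69 and 56.86 CPM in Sox4. The groups overlapped, since the third Sox4 library was above the third EV library. Its log2 difference of -0.66 (SE 0.31) passed with an edgeR adjusted p = 0.0358, but did not pass without the first (-0.49) or second (-0.63) EV library, without the first (-0.59) or second (-0.57) Sox4 library, or with library size alone (-0.20). Rdh16 was therefore the least firm of the 8 calls. The ratio of Rdh7 to Rdh16 was 13.7, 15.7 and 23.4 in EV and 11.0, 8.03 and 5.10 in Sox4, with every Sox4 library below every EV library (log2 difference -1.16, SE 0.40, exact permutation p = 0.1, adjusted p = 0.2).

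Levels can be compared between genes only per length, here as CPM per kilobase of annotated exons, which also counts exons that a transcript may leave out. In EV the order was Adh1 (1101 ± 67.8), Rdh7 (716 ± 26.8), Aldh2 (609 ± 91.9), Aldh1a1 (311 ± 59.4), Aldh1a7 (162 ± 22.5), Adh4 (94.9 ± 8.66), Adh5 (80.6 ± 2.5), Aldh1b1 (60.5 ± 12.6) and Rdh16 (11.6 ± 3.38 CPM per kilobase, SD, n = 3). Neighbours whose means lay within the sum of their SDs were Rdh7 and Aldh2 only. In Sox4, Adh1 stayed first at 568 ± 204 and Rdh16 last at 7.34 ± 1.57 CPM per kilobase. Adh4 went from the sixth place to the eighth at 18.0 ± 6.73, below Aldh1b1 at 60.5 ± 21.6 and Adh5 at 34.2 ± 3.81 CPM per kilobase. In Sox4 the spreads of Aldh2 (265 ± 95.4), Rdh7 (209 ± 48.8) and Aldh1a1 (179 ± 46.5) overlapped, as did those of Aldh1a7 (76.0 ± 8.03) and Aldh1b1. Summed over the 9 members, the level was 10410, 9503 and 8399 CPM in EV and 5576, 4351 and 3322 CPM in Sox4.

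Other genes of the same pathways were taken from lists of enzyme families and of retinoid handling, 64 genes in all, of which 45 were tested. Of these, 27 were lower in Sox4, 7 were higher and 11 did not pass, and their median log2 difference was -0.65. For these counts and those of each list below, the shares over all genes tested were 26.0% lower and 29.0% higher, and 44.9% of the genes averaging 900 counts or more were lower. With library size alone 17 were lower and 11 higher, where 1624 of all 12691 genes tested were lower and 6468 were higher.

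**Figure D4:**
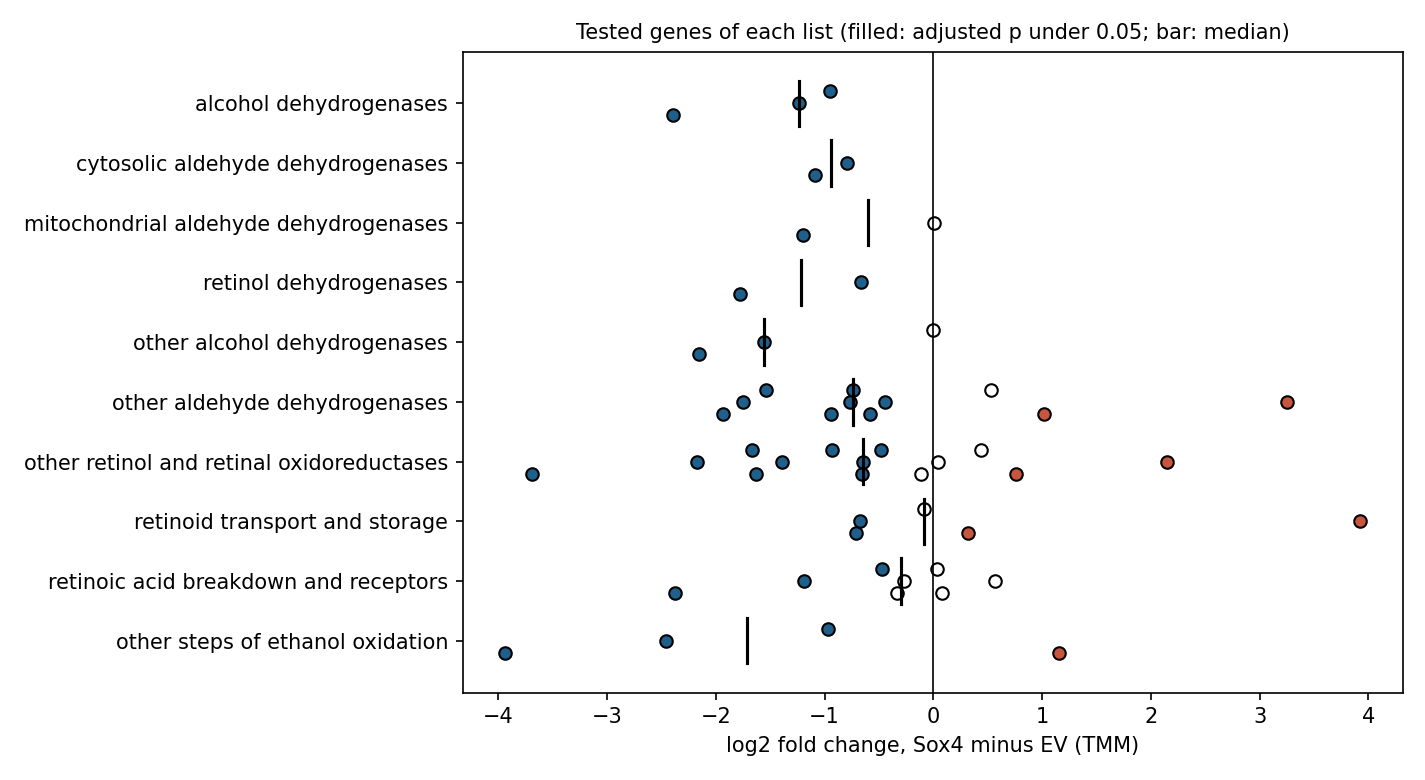
Log2 fold change (Sox4 minus EV, TMM) of each tested gene of the member groups and of the other pathway lists, filled where the edgeR adjusted p was under 0.05, with a bar at the median of the list. Most filled points lie left of 0; Aldh18a1 at 3.25 and Rdh9 at 2.15 are among those to the right.

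Of 5 other genes that oxidise or reduce alcohols, 3 were tested. Adh7, the class IV enzyme known mainly from stomach and active on retinol, fell from 17.06 ± 5.05 to 3.83 ± 0.58 CPM (log2 difference -2.15, SE 0.26, edgeR adjusted p = 5.43e-05). Adhfe1, an iron-dependent hydroxyacid dehydrogenase of mitochondria, fell by 1.55 on the log2 scale (SE 0.19, edgeR adjusted p = 3.11e-05). Akr1a1, which reduces aldehydes back to alcohols, stood at 446 CPM in both groups, with a confidence interval of the log2 difference from -0.33 to 0.33 (edgeR adjusted p = 0.998). With library size alone Akr1a1 passed as higher in Sox4 (log2 difference 0.47, edgeR adjusted p = 0.0191).

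Of 17 other aldehyde dehydrogenases, 11 were tested, 8 were lower, 2 were higher and 1 did not pass, with a median log2 difference of -0.74. Aldh1l1, the cytosolic 10-formyltetrahydrofolate dehydrogenase, fell from 2408 ± 504.5 to 630.1 ± 223.6 CPM (log2 difference -1.93, SE 0.33, edgeR adjusted p = 0.000242). Aldh6a1, of valine and pyrimidine breakdown, fell by 1.75 on the log2 scale (SE 0.13, edgeR adjusted p = 1.02e-05), and Aldh8a1 fell by 1.53 (SE 0.09, edgeR adjusted p = 9.98e-06).

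Aldh3a2, the microsomal enzyme for fatty aldehydes, rose from 193.7 ± 20.17 to 392.3 ± 151.8 CPM (log2 difference 1.02, SE 0.37, edgeR adjusted p = 0.0108). Aldh18a1, of proline synthesis, had 14, 9 and 9 counts in EV and 168, 159 and 131 counts in Sox4 (log2 difference 3.25, SE 0.23, edgeR adjusted p = 1.5e-05), and is named because it is the other of the 2 that rose, with a mean count under the limit of 100 for naming. Aldh1a2 and Aldh1a3, which also make retinoic acid from retinal, had at most 3 and 5 counts in any library and were not tested. Aldh1a1 was therefore the only gene of those 3 with enough counts to test.

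Of 17 other genes that oxidise or reduce retinol and retinal or cleave carotenoids, 14 were tested, 9 were lower, 2 were higher and 3 did not pass. Rdh16f2, a copy of Rdh16 (91.8% identical over aligned coding bases), fell from 158.2 ± 17.11 to 12.27 ± 4.67 CPM (log2 difference -3.69, SE 0.35, edgeR adjusted p = 1.02e-05). Rdh9 had 49, 102 and 79 counts in EV and 596, 424 and 499 counts in Sox4, and rose by 2.15 on the log2 scale (SE 0.32, edgeR adjusted p = 6.87e-05). Rdh9 shares 63.5% of its 100-base exonic stretches with other genes, nearly all with Rdh16f1, whose annotated exons overlap it on the same strand, so its count is uncertain.

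Within the cluster on chromosome 10, Rdh7 and Rdh16f2 were thus lower in Sox4, as was the less firm Rdh16, and the uncertain count of Rdh9 was higher. Rdh1 had at most 3 counts in any library. Per kilobase, Rdh16f2 went from 125 to 9.7 CPM and Rdh9 from 1.6 to 7.13 CPM, so Rdh7 had the highest level of these genes in both groups.

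Retsat, which saturates retinol, fell by 2.18 on the log2 scale (SE 0.45, edgeR adjusted p = 0.00256). Rdh10, the main retinol dehydrogenase of the embryo, fell from 31.52 ± 2.76 to 9.93 ± 1.43 CPM (log2 difference -1.67, SE 0.14, edgeR adjusted p = 1.71e-05). Dhrs3, which reduces retinal back to retinol, went from 148.5 ± 33.19 to 94.38 ± 24.08 CPM with overlapping groups (log2 difference -0.65, SE 0.27, edgeR adjusted p = 0.0246). Dhrs3 did not pass without the first EV library (-0.48) or without the second (-0.57) or the third (-0.53) Sox4 library. With library size alone it did not pass either (-0.19). Rdh13, a mitochondrial enzyme of the same family, rose by 0.76 on the log2 scale (SE 0.13, edgeR adjusted p = 0.00585).

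Of 11 genes of retinoid transport and storage, 5 were tested, 2 were lower and 2 were higher. Rbp4, the retinol carrier that hepatocytes secrete into plasma, fell from 2060 ± 166.4 to 1259 ± 186.6 CPM (log2 difference -0.71, SE 0.15, edgeR adjusted p = 0.00421). Stra6l, a receptor for Rbp4, fell by 0.67 on the log2 scale (SE 0.05, edgeR adjusted p = 0.000838).

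With library size alone neither Rbp4 (-0.24) nor Stra6l (-0.20) passed. Dgat1, which can esterify retinol, was higher by 0.32 on the log2 scale (SE 0.05, edgeR adjusted p = 0.034) and did not pass when any single library was left out. Lrat, the main retinol-esterifying enzyme, had 4, 3 and 8 counts in EV and 10, 34 and 50 counts in Sox4 and was not tested.

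Lrat is also expressed by stellate cells, the liver's retinoid-storing cells. For the marker counts, 29.0% of all genes tested were higher. Of 12 stellate markers 7 were tested, 4 were higher and none was lower. Their summed level was 11.25, 29.92 and 52.07 CPM in EV and 139.7, 153.4 and 102.4 CPM in Sox4, with Reln as the largest contributor in every library, and no marker of that list was at 0 in all 6 libraries. Kupffer cell markers (4 of 9 tested were higher) summed to between 13.41 and 28.83 CPM in EV and between 29.12 and 67.86 CPM in Sox4. Endothelial markers (3 of 9 higher, 1 lower) summed to between 22.11 and 34.86 CPM in EV and between 24.16 and 52.3 CPM in Sox4.

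Cholangiocyte markers (2 of 4 tested were higher) summed to between 27.56 and 43.69 CPM in EV and between 71.81 and 85.01 CPM in Sox4, with Krt7 and Krt19 at 0 in every EV library. The part of these cells in the results was not tested. None of these 4 sums was above 153.4 CPM in any library.

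Of 9 genes of retinoic acid breakdown and its nuclear receptors, 8 were tested, 3 were lower and none was higher. Cyp26a1, which breaks down retinoic acid and is itself induced by it, had 11.02, 15.79 and 22.51 CPM in EV and 31.53, 10.22 and 10.29 CPM in Sox4. The groups overlapped, 1 Sox4 library stood well above the other 2, and the confidence interval of the log2 difference ran from -1.18 to 1.33 (edgeR adjusted p = 0.914), so these libraries do not fix its direction. Rxra, the partner receptor of many nuclear receptors in hepatocytes, fell by 1.19 on the log2 scale (SE 0.15, edgeR adjusted p = 0.000133).

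Rxrb was lower by 0.47 on the log2 scale, but did not pass without the second EV library (-0.47) or without the second (-0.42) or the third (-0.36) Sox4 library. Rxrg, with few counts, went from 7.27 ± 0.78 to 1.40 ± 0.94 CPM and is named as the last of the 3 that were lower. Rara, Rarb and Rarg, the retinoic acid receptors themselves, did not pass, and with library size alone Rarg passed as higher (log2 difference 1.03).

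Of 5 other genes of ethanol oxidation, 4 were tested, 3 were lower and 1 was higher. Cyp2e1, the microsomal P450 that oxidises ethanol, fell from 4491 ± 811.9 to 818.1 ± 223.5 CPM (log2 difference -2.46, SE 0.28, edgeR adjusted p = 2.5e-05). Cat, the peroxisomal catalase, which can also oxidise ethanol, fell by 0.97 on the log2 scale (SE 0.08, edgeR adjusted p = 0.000412). Adh1, Cyp2e1 and Cat, which can each turn ethanol into acetaldehyde in hepatocytes, thus had a lower level in Sox4. With library size alone, Adh1 did not pass (log2 difference -0.49).

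After acetaldehyde becomes acetate, Acss2, the acetyl-CoA synthetase of cytosol and nucleus, fell from 399.4 ± 143.9 to 26.11 ± 4.98 CPM (log2 difference -3.93, SE 0.34, edgeR adjusted p = 9.27e-06). Acss3, a mitochondrial synthetase that prefers propionate, rose from 18.3 ± 1.99 to 40.7 ± 7.51 CPM (log2 difference 1.15, SE 0.18, edgeR adjusted p = 0.000233).

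The genes most like a member across the 6 libraries were sought among the 9024 genes averaging 100 counts or more, by the Euclidean distance of centred log2 CPM. For Adh1 the nearest were Pdia6 (distance 0.17, from 407.8 to 208.2 CPM), Shank2 (0.23) and C4b (0.24, from 2156 to 1097 CPM). For Adh4, the member with the largest difference, they were C1ra (distance 0.37, from 355.1 to 63.49 CPM), Slc46a3 (0.37) and Tstd1 (0.38). With 6 libraries in 2 groups, such likeness describes these libraries only.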

How the data were processed

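The 6 libraries were RNA-seq of liver cells labelled hepatocytes, 3 EV and 3 Sox4, grouped by the sample labels. Per the submitters' processing notes, the authors aligned reads to GRCm39 with STAR 2.7.10b and counted them with featureCounts 2.0.1, and the deposited values used here are unnormalized counts for each gene symbol. Which annotation release and strand setting were used, and how multi-mapping reads were treated, is not given in the sources used here. A deposited table normalized with DESeq2 was not used. The 9 genes and all gene lists were chosen with earlier results of these data known.

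The test was run with edgeR 4.0.16 in R 4.3.3 (filterByExpr with a minimum count of 10 and a minimum total of 15, TMM scaling, robust quasi-likelihood F test, Sox4 minus EV, without covariates). Benjamini-Hochberg adjustment was over the 12691 genes tested, with a threshold of 0.05. SE was computed from log2 CPM (prior count 2) as the standard error of the difference of means, and confidence intervals (95%) come from the fit. Ratios were tested by exact permutation of the 6 libraries. Alternatives were library size alone, DESeq2 1.42.0 size factors and Wald test, limma 3.58.1 voom, no filter, a mean count of at least 50, the replicate number as a block, and leaving out each library. Libraries of the same group were further apart than sampling of reads alone gives (chi-square per degree of freedom 19.3 to 69.8), so none was counted as a repeat.

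Total counts were 15090629 to 16964860 per library, and the floor of 3 counts was between 0.218 and 0.231 CPM for EV and between 0.150 and 0.153 CPM for Sox4. Such floors cover counting error only, since PCR copies are not independent molecules. On simulated counts for this comparison (11591 genes, 200 changed), 95% of genes changed 4-fold and 74% of those changed 2-fold were recovered, with 11 false calls. The simulation changed few genes, as many up as down, whereas 55.1% of the genes tested passed in the data. It therefore does not bear on the choice of scaling. Exon lengths, coding sequences and shared 100-base stretches were taken from GENCODE M21 (GRCm38, whereas reads were aligned to GRCm39) with Python 3.11.15 and Biopython 1.88, and sequences before gene starts from RefSeq on GRCm38.p6. Named genes beside the 9 were, per list, up to 3 with the largest change in each direction that passed and averaged 100 counts or more, Rdh1, Rdh9, Rdh10, Dhrs3, Aldh1a2, Aldh1a3, Cyp2e1, Rbp4, Lrat and Cyp26a1 whatever they did, and the 3 nearest profiles of Adh1 and of the member with the largest change; others were named after their values were seen. Some list members are counted in totals but are not reported here.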

Additional observations from a re-analysis of the deposited data

How the results depend on the processing

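Of 699 values of single genes under the alternatives, 623 were on the same side of 0 and of the threshold as reported, 39 no longer passed, 5 newly passed and 32 had the other sign. Scaling by library size alone had the largest effect: 1624 genes were lower and 6468 higher (3306 and 3684 with TMM), 5 members were lower, 17 other pathway genes were lower and 11 higher, and Adh1 (-0.49), Aldh1a1 (-0.32) and Rdh16 (-0.20) did not pass. Which scaling is nearer to amounts per cell was not tested, since no spike-in was used here. Leaving out single libraries, 6027 to 7269 genes passed and 7 to 8 members were lower, and Rdh16 ranged from -0.89 to -0.49.

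Aldh1b1 lay at 0.00 and changed sign with DESeq2 size factors (-0.0043), the DESeq2 Wald test (-0.0044), limma-voom (-0.047) and leaving out single libraries (-0.26 to 0.25). The replicate numbers share only a number: the deviations of same-numbered libraries correlated at 0.27, -0.09 and 0.13 across genes, and only replicate 1 was nearest to its own number. With the number as a replicate block, 7362 genes passed against 6990 (6853 shared), Rdh16 was lost (-0.65) and Aldh1b1 was -0.043.

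Other genes that changed sign had not passed, except Aldh5a1 and Rxrb. With library size alone these were Aldh5a1 (0.025), Cyp26b1 (0.20), Rara (0.14), Rdh5 (0.36), Rxrb (0.0018) and Ttr (0.38). Akr1a1 was -0.0042 with DESeq2 size factors, -0.0041 with the Wald test, -0.0072 with voom and -0.0065 with the block. Cyp26a1 was -0.085 with voom and -0.097 with the block, and Rarb was -0.082 with voom and -0.055 with the block. Leaving out single libraries gave -0.11 to 0.11 for Akr1a1, -0.69 to 0.35 for Cyp26a1, -0.58 to 0.49 for Cyp26b1, -0.058 to 0.097 for Dhrs7 and -0.49 to 0.27 for Rarb.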
